A study of Homo sapiens with 9 samples.

Results

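The olfactory receptor clusters of chromosomes 1 and 11 were examined as nearly silent regions in MDA-MB-231, a cell line from human breast cancer that lacks hormone receptors and HER2 amplification. Their members were all intervals of the deposited files that lay wholly within 4 windows of the hg19 build: chromosome 11 from 55000000 to 56800000, chromosome 11 from 4380000 to 5220000, chromosome 11 from 6780000 to 6950000, and chromosome 1 from 247600000 to 248850000. This gave 235 intervals of 55527 in all, namely 100, 58, 9 and 68 in the 4 windows in that order. The rule used position and no measured value. RNA had been sequenced from 9 libraries of cells infected with a lentiviral short hairpin RNA and selected with puromycin. Libraries carried shCTDP1-#1 (n = 3) or shCTDP1-#2 (n = 3), both directed against CTDP1, or the scrambled hairpin shScr (n = 3). The CTDP1 protein dephosphorylates the C-terminal repeats of RNA polymerase II. The labels do not state whether replicates are separate cultures, so the spread that p-values rest on here could be technical.

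Olfactory receptors are G protein-coupled receptors that bind odorants in sensory neurons of the nose. Each neuron transcribes a single receptor gene, and the rest of the family is held in heterochromatin there. The coding region of such a gene is a single uninterrupted reading frame, and the genes lie in tandem clusters together with many pseudogenes. Because little transcription is known from these clusters outside the nose, they can show how much weak signal a library carries in nearly silent regions. The state of their chromatin in these cells was not measured. The question asked of them was whether the larger number of weakly detected intervals in libraries with the CTDP1 hairpins extends to such regions.

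The files pair no interval with a gene name, so members are given by position. Their lengths could be set against the label. Of the members, 106 (45.1%) spanned 900 to 1000 bases, about the length of an olfactory receptor reading frame, against 2.21% of the 55292 intervals outside the windows. The median span was 959 bases in the windows and 3268 bases outside. Members ran from 76 to 287503 bases, and 71 of them overlapped another interval by at least 1 base. The windows therefore also held intervals that do not have the length of a receptor gene.

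All values are TPM, a length-corrected transcript abundance that sums to the same total in every library. TPM keeps no read total, so the depth of a library is not known from it. Its lowest values, however, came in steps. Among intervals of 900 to 1000 bases outside the windows, the most frequent value above 0 was 0.12, 0.12 and 0.11 TPM in the shCTDP1-#1 libraries, 0.13, 0.13 and 0.12 TPM in the shCTDP1-#2 libraries and 0.1, 0.11 and 0.12 TPM in the shScr libraries. This is taken here as the value of about 1 read or read pair in an interval of that length. Deeper libraries would have a smaller step. The steps ran from 0.11 to 0.13 TPM in the hairpin libraries and from 0.1 to 0.12 TPM in the shScr libraries, which overlapped. Fragment length also enters the step and was not given, so the step is no measure of depth by itself. In the members of that length, 11 values were above 0 in all 9 libraries together, and 9 of these lay within 20% of the step of their library.

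The windows were silent almost throughout. Of the 235 members, 209 (88.9%) were at 0 TPM in all 9 libraries, against 47.7% of the intervals outside the windows and 67.0% of the 1220 outside intervals of 900 to 1000 bases. A further 24 members were weak, with a mean under 1 TPM over the 9 libraries and at least 1 value above 0. Only 2 members were expressed at 1 TPM or more on average, both in the chromosome 11 window from 4380000 to 5220000, with means of at least 10.2 TPM. Nothing lay in between, since the highest mean of a weak member was 0.236 TPM.

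With shCTDP1-#1, 10, 12 and 10 members were above 0 TPM. With shCTDP1-#2 the numbers were 8, 7 and 5, and with shScr they were 4, 7 and 6. The shCTDP1-#1 libraries all lay above the shScr libraries, while the shCTDP1-#2 libraries overlapped them. The means were 10.7 ± 1.2 members with shCTDP1-#1 and 5.67 ± 1.53 with shScr (SD, n = 3 each), which gave p = 0.1 in the exact two-sided permutation test, the smallest that 3 against 3 libraries allow. With shCTDP1-#2 the mean was 6.67 ± 1.53, against the same 5.67 ± 1.53 with shScr (exact permutation p = 0.6). Both comparisons share the shScr libraries. The hairpins differed from each other by 4 members on average, fewer with shCTDP1-#2 (exact permutation p = 0.1). For both hairpins pooled, 8.67 ± 2.50 members were above 0 (n = 6), against 5.67 ± 1.53 with shScr (n = 3; exact permutation p = 0.143, where 0.0238 is the smallest possible). The main comparisons of counts, sums and shares numbered 36, and the lowest Benjamini-Hochberg adjusted p among these exact tests was 0.225. With so few libraries no adjusted p among them could have fallen under 0.05, so the correction decides nothing here. Exact tests of single windows or chromosomes, of intervals with a mean under 0.1 TPM and of other alternatives were made besides, without adjustment.

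The larger number with shCTDP1-#1 lay mostly in the chromosome 1 window. In that window, 3, 6 and 5 of its 68 members were above 0 with shCTDP1-#1 and 3, 2 and 1 with shCTDP1-#2, against 0, 1 and 0 with shScr. The shCTDP1-#1 libraries all exceeded the shScr libraries there, and the shCTDP1-#2 libraries equalled or exceeded the highest of them. The exact permutation p for both hairpins together was 0.0476 in this window alone, not adjusted, 1 of 4 windows taken singly. On chromosome 11, 7, 6 and 5 of 167 members were above 0 with shCTDP1-#1 and 5, 5 and 4 with shCTDP1-#2, against 4, 6 and 6 with shScr, and all 3 groups overlapped. Their mean shares were 3.59% with shCTDP1-#1 and 2.79% with shCTDP1-#2, against 3.19% with shScr (exact permutation p = 0.7 for shCTDP1-#1 and 0.6 for shCTDP1-#2). The share on chromosome 1 minus that on chromosome 11 ran from -0.925 to 5.23 percentage points in the 6 hairpin libraries and from -3.59 to -2.12 in the shScr libraries. Pooling the chromosome 11 windows and this contrast between chromosomes were both chosen after the values were seen. The pooling leaves out the window already seen to be higher, so its p-values do not decide where the difference lies. The contrast is given without a test.

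**Figure D1:**
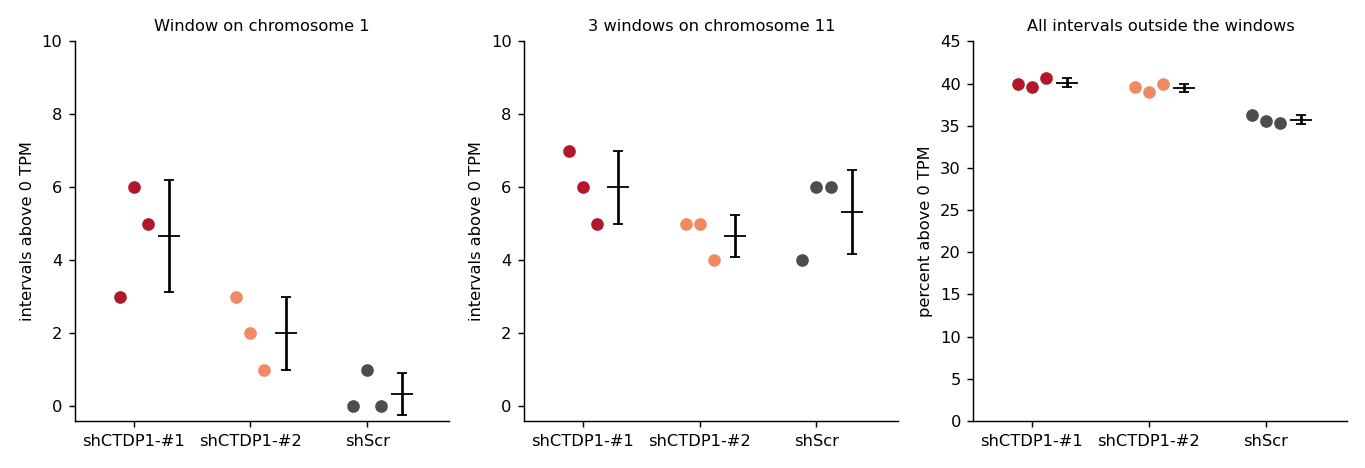
Intervals above 0 TPM by library (points, vertical axes) for the 3 groups (horizontal axis): number in the chromosome 1 window, number in the 3 chromosome 11 windows, and percent of all intervals outside the windows. Bars give the mean ± SD of 3 libraries. The chromosome 1 window holds 3 to 6 detected members with shCTDP1-#1 and 0 or 1 with shScr, the chromosome 11 windows overlap between groups, and every hairpin library lies above every shScr library outside the windows.

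The largest window, with 100 members on chromosome 11 from 55000000 to 56800000, stayed closest to complete silence. Of its members, 97 were at 0 in all 9 libraries, and each of the others was above 0 in a single library. The interval from 55944094 to 55945032, 939 bases long, had 0.22 TPM in shCTDP1-#1 replicate 3. The interval from 56216144 to 56217068 had 0.12 TPM in shCTDP1-#1 replicate 1, and that from 55110627 to 55111707 had 0.11 TPM in shCTDP1-#2 replicate 1. These values are about 1 or 2 steps, and no shScr library had a value above 0 in this window. The summed TPM of the window was 0.12, 0 and 0.22 with shCTDP1-#1 and 0.11, 0 and 0 with shCTDP1-#2, against 0 in each shScr library.

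The weak members of the 2 other chromosome 11 windows had as much signal with the scrambled hairpin as with the CTDP1 hairpins. In the window from 4380000 to 5220000 their summed level was 0.1, 0.27 and 0.18 TPM with shCTDP1-#1 and 0.07, 0.08 and 0.19 TPM with shCTDP1-#2, against 0.09, 0.23 and 0.28 TPM with shScr. The interval from 4701401 to 4719084 was the weak member seen most often, in 8 of 9 libraries. It had 0.07, 0.07 and 0.13 TPM with shCTDP1-#1 and 0.07, 0 and 0.1 TPM with shCTDP1-#2, against 0.09, 0.03 and 0.17 TPM with shScr, so the groups overlapped. In the window from 6780000 to 6950000, which has 9 members, the interval from 6789218 to 6790286 was above 0 in 7 libraries. It had 0.1, 0.11 and 0 TPM with shCTDP1-#1 and 0.22, 0.11 and 0 TPM with shCTDP1-#2, against 0.09, 0.09 and 0.31 TPM with shScr, and here the highest value was in a shScr library.

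With shCTDP1-#1, most of the summed weak TPM on chromosome 1 lay in 1 stretch. Values above 0 were more spread. The stretch held 6 of them with shCTDP1-#1, 3 with shCTDP1-#2 and 0 with shScr, and 12 lay elsewhere in the window. The interval from 247875045 to 247876105, 1061 bases long, had 1.02, 0.64 and 0.35 TPM with shCTDP1-#1 and 0.11, 0 and 0 TPM with shCTDP1-#2, against 0 in all 3 shScr libraries. Its values with shCTDP1-#1 were 8.5, 5.33 and 3.18 times the step of each library. It overlaps the interval from 247875115 to 247887066, which had 0, 0 and 1.09 TPM with shCTDP1-#1 and 0, 0.38 and 0 TPM with shCTDP1-#2, against 0 with shScr. That interval overlaps in turn the one from 247886401 to 247887345, which had 0.12 TPM in shCTDP1-#1 replicate 2 and in shCTDP1-#2 replicate 3 and 0 elsewhere. The fourth, from 247901917 to 247902861, had 0.44 TPM in shCTDP1-#1 replicate 3 and 0 in all other libraries. The library kit does not mark the strand of origin and receptor genes have near-identical copies, so the division of reads among overlapping or similar intervals is uncertain.

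These 4 intervals, singled out after their values were seen, lay between 247875045 and 247902861 and summed to 1.02, 0.76 and 1.88 TPM with shCTDP1-#1 and 0.11, 0.38 and 0.12 TPM with shCTDP1-#2, against 0 with shScr. They carried 62.5% of the weak signal of all windows in the shCTDP1-#1 libraries and 33.9% in the shCTDP1-#2 libraries. In the other members on chromosome 1, 12 values were above 0. Of these, 6 lay within 20% of the step of their library, at 0.11 to 0.13 TPM in intervals of 936 to 1054 bases, and 5 were values of 0.04 to 0.09 TPM in longer intervals, of 3708 to 107314 bases, for which no step was read. The last was 0.41 TPM. The longest of the long intervals, from 247803051 to 247910364, encloses all 4 intervals of the stretch. It had 0.06 TPM in shCTDP1-#1 replicate 3 alone. The interval from 248402231 to 248403166 had 0.12 TPM in shCTDP1-#1 replicate 2 and 0.13 TPM in shCTDP1-#2 replicate 1. The interval from 248844628 to 248845629 had 0.11 TPM in shCTDP1-#1 replicate 1 and 0.41 TPM in shCTDP1-#1 replicate 3. Neither was above 0 in any shScr library. The only chromosome 1 member above 0 with shScr was the interval from 247670360 to 247740992, at 0.05 TPM in shScr replicate 2. It also had 0.05 TPM in shCTDP1-#1 replicate 2 and 0.09 TPM in shCTDP1-#2 replicate 1.

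Over all windows the weak members summed to 1.64, 1.47 and 2.75 TPM with shCTDP1-#1 and 0.73, 0.76 and 0.31 TPM with shCTDP1-#2, against 0.18, 0.37 and 0.7 TPM with shScr. The shCTDP1-#1 libraries stood above the rest and the shCTDP1-#2 libraries overlapped shScr. The means were 1.95 ± 0.70 TPM with shCTDP1-#1 and 0.417 ± 0.263 TPM with shScr (exact permutation p = 0.1), and 0.6 ± 0.25 TPM with shCTDP1-#2 against the same shScr value (exact permutation p = 0.5). Without the chromosome 1 window, an alternative added after the values were seen, the mean difference from shScr was -0.01 TPM for shCTDP1-#1 (exact permutation p = 1) and -0.113 TPM for shCTDP1-#2 (exact permutation p = 0.7).

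**Figure D2:**
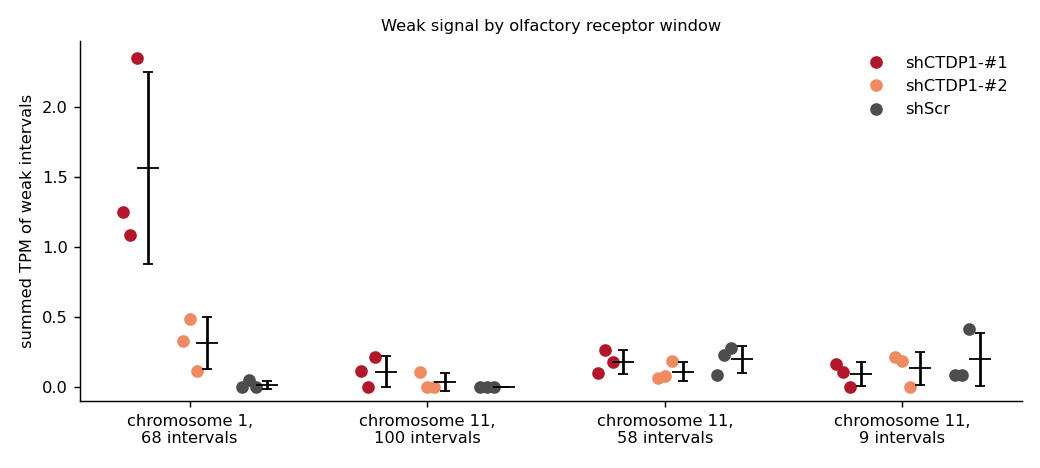
Summed TPM of the weak members (vertical axis) in each of the 4 windows (horizontal axis), with 1 point per library, coloured by group, and bars for the mean ± SD of 3 libraries. On chromosome 1 the shCTDP1-#1 libraries reach 1.09 to 2.35 TPM against at most 0.05 TPM with shScr, while the 3 windows on chromosome 11 stay at or under 0.42 TPM in every library.

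Of the 24 weak members with any value above 0, 12 were detected in exactly 1 library and 7 in exactly 2. With shCTDP1-#1, 18 of them were above 0 in at least 1 library, with shCTDP1-#2 12, and with shScr 6, of which 3 were shared by all 3 groups. A total of 18 weak members were above 0 in some hairpin library and no shScr library, and 2 in some shScr library and no hairpin library, but there are 6 hairpin libraries and 3 shScr libraries. Of the 18, 11 were among the 68 members on chromosome 1 and 7 among the 167 on chromosome 11. The share of all intervals under these rules was not counted. Outside the windows, 40.1% of intervals were above 0 with shCTDP1-#1 and 39.5% with shCTDP1-#2, against 35.7% with shScr. Nothing is therefore drawn from these counts. A symmetric count is that of members at 0 in all 3 libraries of one group and above 0 in all 3 of the other. With shCTDP1-#1, 2 members (0.851%) gained signal against shScr in this sense, beside 1.34% of all intervals, and 0 members lost it, beside 0.113% of all intervals. With shCTDP1-#2, 0 members gained signal, beside 0.998% of all intervals, and 0 lost it, beside 0.117%. No test was made of these counts. The members that gained signal were the chromosome 1 interval from 247875045 to 247876105 and the chromosome 11 interval from 4664650 to 4676718. The second had 0.03, 0.08 and 0.05 TPM with shCTDP1-#1, against 0 in every shScr library, and it was at 0 in the shCTDP1-#2 libraries too.

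At the median, detected weak members lay nearer to expressed intervals than silent ones, and a larger share of them overlapped another interval. The median distance to the nearest interval with a mean of at least 1 TPM was 224830 bases for the 24 detected weak members and 572840 bases for the 209 silent members, with a range among the detected ones of 1845 to 1955405 bases. Overlaps with another interval were found for 41.7% of the detected weak members and 29.2% of the silent ones. Members of a window share their neighbours. The window with 100 members held 97 of the 209 silent members, and only 10 of its members overlapped another interval. Distances and overlaps were not compared within windows, so both are a description without a test.

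Both expressed members changed with the CTDP1 hairpins. Neither has the length of an olfactory receptor reading frame, and nothing here shows that they are receptor genes. The interval on chromosome 11 from 4406127 to 4414926, 8800 bases long, had 31.7, 29.6 and 31.2 TPM with shCTDP1-#1 and 33.5, 32.1 and 31.5 TPM with shCTDP1-#2, against 14.5, 14.1 and 13.1 TPM with shScr. All 6 hairpin libraries lay above all shScr libraries. The log2 change on the log2(TPM + 1) scale was 1.09 with shCTDP1-#1 (SE 0.06, limma adjusted p = 1.24e-07) and 1.16 with shCTDP1-#2 (SE 0.06, limma adjusted p = 9.01e-08). This was well above the median of all 15011 intervals tested, 0.07 with shCTDP1-#1 and 0.13 with shCTDP1-#2, and 6.07% of the tested intervals had a higher change with shCTDP1-#1 and 6.002% with shCTDP1-#2.

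The interval on chromosome 11 from 4619902 to 4629489, 9588 bases long, moved the other way. It had 8.91, 9.75 and 8.56 TPM with shCTDP1-#1 and 9.49, 8.01 and 10.2 TPM with shCTDP1-#2, against 11.5, 12.4 and 12.8 TPM with shScr. All hairpin libraries lay below all shScr libraries. The log2 change was -0.40 with shCTDP1-#1 (SE 0.10, limma adjusted p = 0.00502) and -0.38 with shCTDP1-#2 (SE 0.10, limma adjusted p = 0.00667). Between the hairpins neither interval passed the test. The log2 differences of shCTDP1-#2 from shCTDP1-#1 were 0.07 (95% interval -0.07 to 0.20, limma adjusted p = 0.382) for the first and 0.02 (95% interval -0.20 to 0.24, limma adjusted p = 0.885) for the second.

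**Figure D3:**
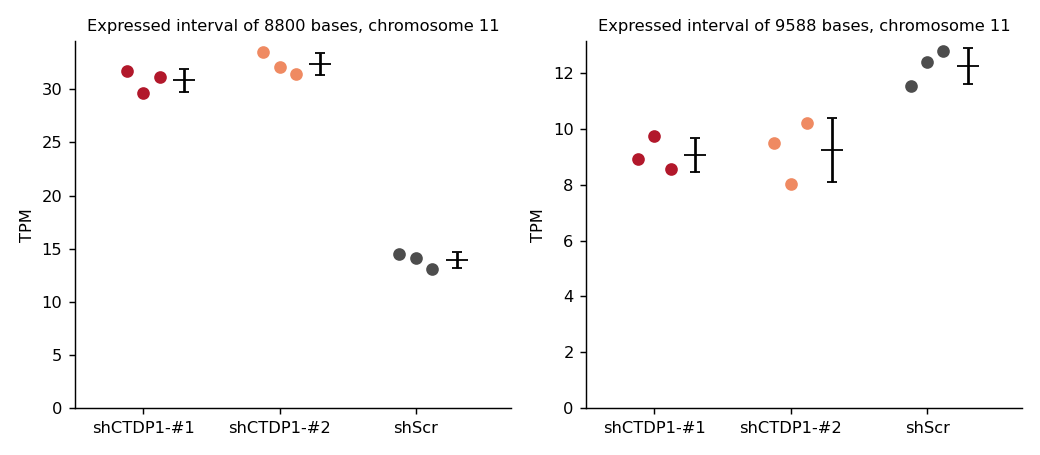
TPM by library (points, vertical axes) of the 2 expressed members on chromosome 11 for the 3 groups (horizontal axis), with bars for the mean ± SD of 3 libraries. The interval of 8800 bases lies between 29.6 and 33.5 TPM with the CTDP1 hairpins and at most at 14.5 TPM with shScr, and the interval of 9588 bases lies at most at 10.2 TPM with the hairpins and at least at 11.5 TPM with shScr.

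These 2 were the only members that reached at least 1 TPM in at least 3 libraries, the condition for the test; the other 233 were not tested. With each hairpin 1 of the 2 tested members rose and 1 fell. Calls were common over all tested intervals. With shCTDP1-#1, 35.4% were higher and 27.7% lower (63.1% in either direction), and with shCTDP1-#2, 39.5% were higher and 24.6% lower (64.0% in either direction). Being called therefore does not set these members apart. Between the hairpins 0 of the 2 members were called by limma, and 0 had an unadjusted p under 0.05, beside 30.2% of all tested intervals higher and 20.0% lower with shCTDP1-#2 (50.2% in either direction). When any interval above 0 in at least 3 libraries was admitted, 7 of the 235 members were tested. With shCTDP1-#1, 3 were called, beside 44.4% of 23174 intervals, with shCTDP1-#2, 2, beside 44.2%, and between the hairpins 1, beside 33.2%. The member added to the calls was the chromosome 1 interval from 247875045 to 247876105, which was above 0 in 3 shCTDP1-#1 libraries, 1 shCTDP1-#2 library and no shScr library. It met the condition only through the group in which it is high, so nothing is drawn from its call.

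The 2 expressed members carried nearly all the signal of the windows. They made up 93.5% to 96.4% of the summed TPM with shCTDP1-#1 and 98.1% to 99.3% with shCTDP1-#2, against 97.4% to 99.3% with shScr. The sum over all 235 members was 42.2, 40.9 and 42.5 TPM with shCTDP1-#1 and 43.7, 40.9 and 42.0 TPM with shCTDP1-#2, against 26.2, 26.9 and 26.6 TPM with shScr. All hairpin libraries exceeded all shScr libraries (exact permutation p = 0.1 for either hairpin and 0.0238 for both together, the smallest possible in each design). The difference of means was 15.3 TPM with shCTDP1-#1, of which the interval of 8800 bases alone gave 16.9 TPM and the interval of 9588 bases -3.17 TPM. The weak members together gave 1.54 TPM of it. The sum thus mostly reports on the 2 expressed intervals.

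Detection was higher across the rest of the genome in every hairpin library than in any shScr library. Outside the windows, 40.1 ± 0.5% of intervals were above 0 with shCTDP1-#1 and 39.5 ± 0.5% with shCTDP1-#2, against 35.7 ± 0.5% with shScr, a ratio of 1.12 with shCTDP1-#1 and 1.11 with shCTDP1-#2. The share of members above 0 was 4.54 ± 0.49% with shCTDP1-#1 and 2.84 ± 0.65% with shCTDP1-#2, against 2.41 ± 0.65% with shScr. The share of members divided by that of all other intervals in the same library was 0.106, 0.129 and 0.105 with shCTDP1-#1 and 0.0861, 0.0764 and 0.0533 with shCTDP1-#2, against 0.0469, 0.0837 and 0.0722 with shScr. This ratio did not overlap between shCTDP1-#1 and shScr (exact permutation p = 0.1) and overlapped between shCTDP1-#2 and shScr (exact permutation p = 0.7). In total TPM, 1 shScr library, replicate 1, had 4.47% of its TPM in mitochondrial intervals against 1.12% to 2.28% in the others; without it the mean ratio with shCTDP1-#2 lay below that with shScr (difference -0.0061), as it did without shCTDP1-#2 replicate 1 (difference -0.0028).

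Detection was compared again among intervals with a mean under 0.1 TPM over the 9 libraries, though single values could be higher. Of 34642 such intervals outside the windows, 8.47 ± 0.58% were above 0 with shCTDP1-#1 and 7.49 ± 0.55% with shCTDP1-#2, against 4.20 ± 0.46% with shScr. Of the 230 such members, 2.90 ± 0.50% were above 0 with shCTDP1-#1 and 1.45 ± 0.25% with shCTDP1-#2, against 1.16 ± 0.66% with shScr. This limit left out the weak chromosome 1 members from 247875045 to 247876105 and from 247875115 to 247887066, whose means were highest with shCTDP1-#1. It also left out the weak chromosome 11 member from 6789218 to 6790286, whose mean was highest with shScr. The outside groups did not overlap (exact permutation p = 0.0238 for both hairpins together, the smallest possible). The members gave p = 0.214 in the same exact permutation test. With the ratio of both taken within each library, shCTDP1-#1 averaged 0.345 and shScr 0.287 (exact permutation p = 0.8). The 3 shCTDP1-#1 libraries lay between 0.287 and 0.439 and the 3 shScr libraries between 0.0925 and 0.426, so the separation seen over all intervals was lost at this level. By the same ratio, shCTDP1-#2 differed from shScr by -0.093 (exact permutation p = 0.4), opposite in direction to the ratio over all intervals. At this weak level the difference from shScr in the windows was 1.74 percentage points with shCTDP1-#1 and 0.29 with shCTDP1-#2, and outside them it was 4.28 points with shCTDP1-#1 and 3.29 with shCTDP1-#2. As a ratio to shScr, whose share was lower in the windows, it was 2.5 in the windows and 2.02 outside with shCTDP1-#1, and 1.25 in the windows and 1.78 outside with shCTDP1-#2. The order of windows and outside intervals with shCTDP1-#1 thus depends on the measure.

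Of the 106 members of 900 to 1000 bases, 1.89%, 3.77% and 1.89% were above 0 with shCTDP1-#1 and 0.943%, 0% and 0.943% with shCTDP1-#2, against 0%, 0% and 0.943% with shScr. Of the 1220 outside intervals of that length, 15.4%, 14.4% and 15.8% were above 0 with shCTDP1-#1 and 16.4%, 15.2% and 16.6% with shCTDP1-#2, against 13.0%, 12.5% and 12.1% with shScr. Outside the windows every hairpin library exceeded every shScr library (exact permutation p = 0.0238 for both hairpins together). In the windows shCTDP1-#1 exceeded shScr in every library (exact permutation p = 0.1) while shCTDP1-#2 overlapped it (exact permutation p = 1). Each value above 0 in the windows stands for 1 to 4 intervals of 106, so these shares move by nearly 1 point with 1 interval.

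**Figure D4:**
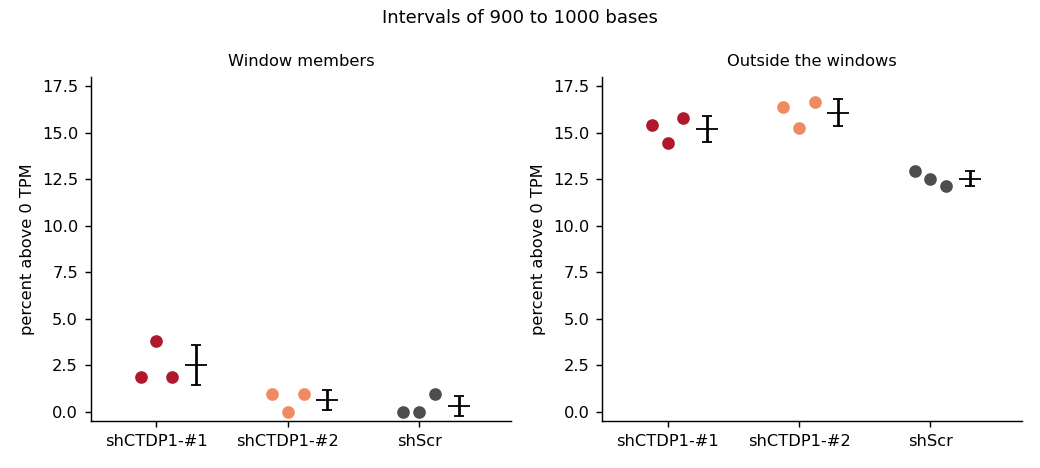
Percent of intervals of 900 to 1000 bases above 0 TPM by library (points, vertical axes) for the 3 groups (horizontal axis), among the 106 window members and among the 1220 intervals outside the windows, with bars for the mean ± SD of 3 libraries. Window members stay at or under 3.77% and outside intervals lie between 12.1% and 16.6%.

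A pair of other gene families known to be silent in most cells were set beside the receptor windows. The bounds of both clusters were set from general knowledge and not checked against an annotation of the hg19 build. The keratin-associated protein cluster of chromosome 21, whose genes encode matrix proteins of hair, held 46 intervals between 31653629 and 32410795. Of these, 3, 1 and 3 were above 0 with shCTDP1-#1 and 0, 1 and 3 with shCTDP1-#2, against 2, 2 and 1 with shScr, so the groups overlapped. The late cornified envelope cluster of chromosome 1, whose genes encode proteins of the outer skin layer, held 24 intervals between 152483320 and 152800573. Of these, 1, 0 and 2 were above 0 with shCTDP1-#1 and 1, 0 and 4 with shCTDP1-#2, against 0 in every shScr library (exact permutation p = 0.4 for either hairpin). In neither family, nor in the receptor windows of either chromosome, did the hairpin libraries all exceed the shScr libraries. In the chromosome 1 receptor window all shCTDP1-#1 libraries did. There, shCTDP1-#2 replicate 3 had 1 member above 0, as did shScr replicate 2.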

How the data were processed

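The authors deposited 1 file per library with 1 value per genomic interval. STAR and RSEM on hg19 are named by the submitters' processing notes; versions are not given in the sources used here. The deposited values are taken as TPM because they sum to 1000000 in every library and carry 2 decimals, as the file headers name no unit. The 9 files were joined on coordinates, and 2246 rows with duplicated coordinates were dropped, including 4 in the windows, which leaves 55527 intervals. No pair of files was identical. Libraries were grouped by the hairpin in their labels.

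Members were found by position, and counts above 0 and summed TPM were compared between libraries with exact two-sided permutation tests (scipy 1.17.1). log2(TPM + 1) of the 15011 intervals that reached 1 TPM in 3 or more libraries was fitted with limma 3.58.1 (trend, robust) in R 4.3.3, all 9 libraries in 1 fit, with Benjamini-Hochberg adjusted p under 0.05 over all of them. The fit was tested on simulated data. Members, windows and tests were chosen with earlier results of these data known. Printed members were those averaging 1 TPM or more, the 4 highest weak members of 900 to 1000 bases, members that gained or lost signal, and those called; others printed were chosen after their values were seen. Alternatives covered the detection limit, scaling, filters, windows, single libraries and the replicate number. Sequences are not shown, since no hg19 genome was used here.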

Additional observations from a re-analysis of the deposited data

How the results depend on the processing

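The alternatives without the chromosome 1 window were added after the values were seen; the others were planned. Of the alternatives, those that kept the direction and the side of the threshold are not listed. For the number of members above 0, the mean difference from shScr in the chromosome 11 window from 6780000 to 6950000 alone was -0.333 with shCTDP1-#1, with shCTDP1-#2 and with both together, and between the hairpins it was 0. In the window from 4380000 to 5220000 alone it was -0.667 with shCTDP1-#2 and -0.167 with both. Among members that overlap no other interval it was 0 with shCTDP1-#2. In the chromosome 1 window alone it was 3 with both (exact permutation p = 0.0476), and without that window -0.667 with shCTDP1-#2 and 0 with both. The weak sum without that window differed by -0.01, -0.113 and -0.062 TPM with shCTDP1-#1, shCTDP1-#2 and both. Among intervals with a mean under 0.1 TPM the relative detection differed by -0.093 with shCTDP1-#2 and by -0.017 with both. Between the hairpins, the sum over all members differed by -2.88 TPM after upper-quartile and by -1.68 TPM after median-of-ratios scaling. The log2 differences there were -0.0400 and -0.0016 for the interval from 4406127 to 4414926 and -0.0803 and -0.0446 for that from 4619902 to 4629489, in the same order of scaling. Signal in at least 2 of 3 libraries was gained by 1869 and lost by 302 of all intervals with shCTDP1-#1 and by 1537 and 297 with shCTDP1-#2, and lost by 1 member with each hairpin. With a limit of 0.05 TPM, 1 member gained signal with shCTDP1-#1. The looser filter called 1 of 7 members between the hairpins, beside 33.2% of 23174 intervals; that member met the filter only through the shCTDP1-#1 libraries. The cause of these shifts was not tested.

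With each library left out in turn, the number above 0 differed from shScr by 4.17 to 5.67 members with shCTDP1-#1 and by 0.167 to 1.83 with shCTDP1-#2. For both hairpins the sum differed by 15.1 to 15.7 TPM, the weak sum by 0.565 to 1.05 TPM (exact permutation p = 0.0357 without shCTDP1-#2 replicate 3) and the share of outside intervals of 900 to 1000 bases by 2.91 to 3.36 points. Leaving out a shScr library leaves 6 against 2, where no p can fall under 0.0714. Between the hairpins the sum differed by -0.408 to 1.00 TPM and the log2 value of the interval from 4619902 to 4629489 by -0.0495 to 0.109. For shCTDP1-#2 against shScr, the relative detection differed by -0.0061 to 0.0136 and the ratio in intervals of 900 to 1000 bases by -0.000802 to 0.0381. The keratin-associated protein cluster differed by -1.17 to 0.333 intervals with shCTDP1-#2 and by -0.167 to 0.533 with both, and the late cornified envelope cluster by -0.5 to 1.5 between the hairpins.

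The groups share replicate numbers 1 to 3. Deviations from the group mean correlated at -0.01 to 0.05 between libraries of the same number and at -0.05 to 0.02 between others. No clear shared deviation of same-numbered libraries was seen, and the labels do not state whether the numbers pair libraries. In the fit with the replicate block, 9393, 9517 and 7425 intervals were called in shCTDP1-#1 against shScr, shCTDP1-#2 against shScr and shCTDP1-#2 against shCTDP1-#1, and 2, 2 and 0 members. Detection of a weak member can rest on a single read, so a value of 0 does not show absence.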
